A study of Mus musculus with 7 samples.

Results

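The 9 genes described here, Rad50, Exo1, Blm, Brca1, Brca2, Rad51ap1, Rad54l, Fancd2 and Fanci, encode proteins of homologous recombination and of the Fanconi anaemia pathway. They were named one by one and found by Ensembl identifier, 9 of the 15531 genes tested in the comparison of mouse embryonic fibroblasts (MEFs) with and without a chromosome 4 deletion. RNA came from 7 independent primary MEF lines, taken from embryos at embryonic day 13.5 and grown to confluence at passage 4. The 4 Df/+Bl6 lines carried a 129S5/SvEvBrd chromosome 4 with an engineered deletion of 4.3 Mb in band 4E2 over an intact C57BL/6J homologue. The 3 control lines had an intact 129S5/SvEvBrd chromosome 4 over a C57BL/6J one, and so were wild-type F1 hybrids of both strains. The sources used here name neither litters nor batches. The genotypes were compared on the counts of both alleles added together, called the combined comparison, and on the reads assigned to each allele. Alleles and reads of 129S5/SvEvBrd are called 129S5 below.

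Homologous recombination mends broken chromosomes by copying an intact sister chromatid: the broken ends are trimmed to single strands, which then invade the matching sequence. The Fanconi pathway frees forks that are stopped by crosslinks between the DNA strands, and hands the broken intermediates to recombination. Both work mainly during and after DNA replication, and many of their genes are known to be transcribed more in proliferating than in resting fibroblasts.

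Each value below is the authors' mean normalised read count over the lines of a genotype, and a difference is the log2 of the mean in Df/+Bl6 over that in the controls. The named columns are genotype means, and a further table of values was not used because its columns have no names to tie them to lines. The spread between lines was therefore not measured, no test was run, and the genotypes may or may not overlap line by line. A gene is said to rise or fall when the authors' list of differentially expressed genes holds it, at an FDR of 0.05 (DESeq). A gene not listed there has no value here, which does not show that its expression was unchanged.

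All 9 genes were listed in the combined comparison, and the mean of each was higher in Df/+Bl6 MEFs. They were chosen with earlier results of these data known. This count is therefore a description, and cannot be read against the shares of all genes that follow. Of the 15531 genes tested, 8.67% were listed in either direction, 5.13% as higher and 3.54% as lower. The differences ran from 0.59 for Rad50 to 1.47 for Exo1, with a median of 1.22, or 2.34-fold. Relative to the median difference of all 1346 listed genes, which was 0.61, Rad50 stood at -0.021 and the other 8 genes between 0.36 and 0.86. The listed genes are those past the FDR, 796 of them higher and 550 lower, so their median falls among the rises. It is no baseline of all genes tested. A value below 0 after such recentring marks a rise smaller than that median, not a fall. The median over the 796 genes that rose was 0.80. Fanci, at 0.96, was the gene of the 9 nearest above that median, and Rad50 was the 1 gene below it. Exo1, Brca2, Blm and Rad51ap1 lay in the top 10% of all rises. The summed mean of the 9 genes was 10334 in the controls and 21045 in Df/+Bl6, a ratio of 2.04.

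**Figure D1:**
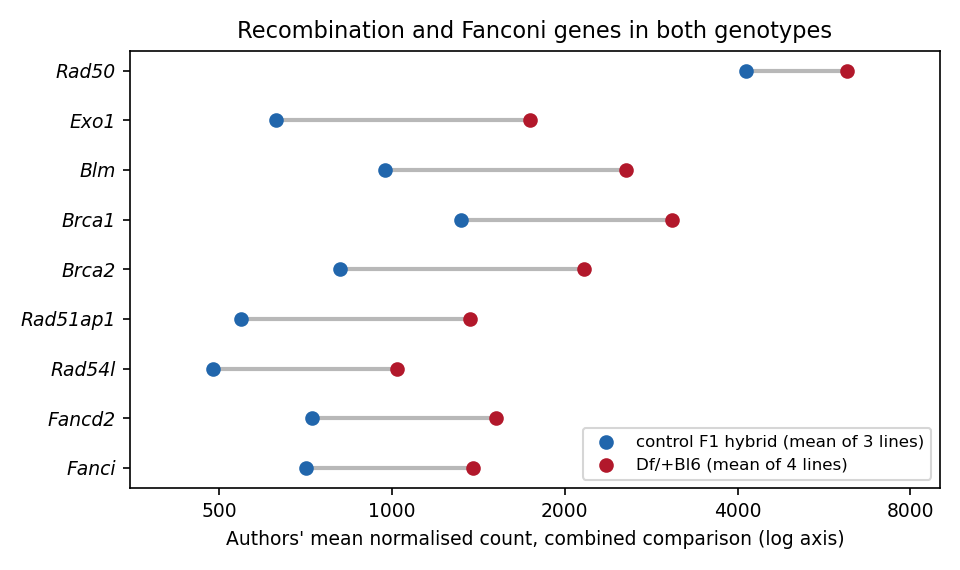
Mean normalised count of each of the 9 genes in the combined comparison (log axis), with 1 blue point for the mean of the 3 control lines and 1 red point for the mean of the 4 Df/+Bl6 lines, and no error bars, since no values of single lines were used. The red point lies to the right for each gene, with the shortest step for Rad50 (4140 to 6215), which is also the gene that came to -0.021 after recentring on all listed genes.

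The first steps of recombination trim the broken end. Rad50 (ENSMUSG00000020380, chr11:53649519-53707319 on GRCm38.p6) encodes the ATPase that bridges DNA ends in the MRN complex, together with MRE11 and NBN. Its mean was 4140 in the controls and 6215 in Df/+Bl6, a log2 difference of 0.59. Of all rises, 11.7% were smaller. Its partners in the complex rose by similar amounts, Mre11a by 0.68 (2272 to 3629) and Nbn by 0.74 (2424 to 4040). Per kilobase of the longest annotated transcript, the level of Rad50 in the controls was 803, between those of Mre11a (401) and Nbn (957), and the order was the same in Df/+Bl6, with 641 for Mre11a, 1206 for Rad50 and 1595 for Nbn.

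Exo1 (ENSMUSG00000039748, chr1:175880768-175911396) encodes an exonuclease that lengthens the single-stranded tail after MRN has begun it. Its mean was 628 in the controls and 1742 in Df/+Bl6. The difference of 1.47, or 2.77-fold, was the largest of the 9 genes, and 94.6% of all rises were smaller. Dna2, a nuclease of the parallel route of long resection, rose by 1.04 (383 to 789), and Rbbp8, which encodes the MRN cofactor CtIP, by 0.84 (1637 to 2940).

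Blm (ENSMUSG00000030528, chr7:80454993-80535148) encodes the RecQ helicase that is mutated in Bloom syndrome, which unwinds DNA for resection and, with TOP3A and the RMI proteins, dissolves double Holliday junctions without crossing over. Its mean was 973 in the controls and 2557 in Df/+Bl6, a difference of 1.39. Among the genes of the dissolution complex, Rmi1 rose by 0.74 (780 to 1301), Top3a was tested and not listed, and Rmi2 was not among the genes tested. Of the 10 tested genes for resection and junction dissolution, 8 rose and 0 fell. Wrn and Top3a were the 2 not listed in the combined comparison, though Wrn was listed as higher for the 129S5 allele (541 to 816, a difference of 0.59). That difference lies under the median of all genes listed for this allele, 0.63, and so comes below 0 after recentring on them.

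Brca1 (ENSMUSG00000017146, chr11:101488761-101551955) encodes a ubiquitin ligase subunit that favours resection and brings PALB2 and BRCA2 to the break. Its mean was 1317 in the controls and 3077 in Df/+Bl6, a difference of 1.22, which was the median of the 9 genes. Bard1, its partner in the ligase, rose by 1.00 (472 to 945), and Brip1, a helicase bound by BRCA1, by 1.44 (721 to 1958). Palb2, the link to BRCA2, rose by 1.17 (276 to 622). These were the 4 of 9 genes of the BRCA1 complexes that rose, and 0 fell. The 5 not listed, Uimc1, Fam175a, Brcc3, Bre and Babam1, are the genes of the BRCA1-A complex, which binds ubiquitin chains at breaks.

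Brca2 (ENSMUSG00000041147, chr5:150522297-150570147) encodes a large protein needed for the single strand to invade its target. Its mean was 811 in the controls and 2163 in Df/+Bl6, a difference of 1.42. Per kilobase of transcript, Brca2 had the lowest level of the 9 genes in both genotypes, 75.6 in the controls and 202 in Df/+Bl6, close to Palb2 with 73.6 and 166. Rad50 had the highest of the 9 in both genotypes on this scale.

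Rad51ap1 (ENSMUSG00000030346, chr6:126923415-126939621) encodes a protein that helps the invading strand pair with its target. Its mean was 545 in the controls and 1370 in Df/+Bl6, a difference of 1.33. Rad54l (ENSMUSG00000028702, chr4:116094261-116123700) encodes RAD54, a motor protein that opens the target duplex. Its mean was 487 in the controls, the lowest of the 9 genes before correction for length, and 1021 in Df/+Bl6, a difference of 1.07. Its paralogue Rad54b rose by 1.31 (271 to 674). Of the 15 tested genes for strand exchange counted here, 6 rose and 0 fell. The rises were those of these 3 genes with Rad54b, Rad51c (0.94) and Xrcc2 (0.87), while Rad51b, Rad51d, Xrcc3, Rad52, Shfm1, Sfr1, Swi5, Swsap1 and Helq, were not listed.

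Fancd2 (ENSMUSG00000034023, chr6:113531640-113597020) and Fanci (ENSMUSG00000039187, chr7:79392312-79450266) encode the 2 subunits of the ID complex, which clamps on DNA when it is ubiquitinated. The mean of Fancd2 was 725 in the controls and 1517 in Df/+Bl6, a difference of 1.06. That of Fanci was 709 in the controls and 1384 in Df/+Bl6, a difference of 0.96. Per kilobase of transcript the subunits had close levels, 132 for Fancd2 and 154 for Fanci in the controls, and 275 and 300 in Df/+Bl6. Ube2t, which encodes the enzyme that conjugates ubiquitin to the complex, rose by 0.86 (265 to 480), and Usp1, which encodes the enzyme that removes it, by 1.12 (4812 to 10462). Of the 14 tested Fanconi genes 7 rose and 0 fell. The core complex was divided, with rises for Fancb (1.36), Fancm (0.87) and Fanca (0.65), and with Fancc, Fance, Fancf, Fancg and Fancl not listed. Wdr48, which encodes the cofactor of USP1, and the nuclease gene Fan1 were not listed either.

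**Figure D2:**
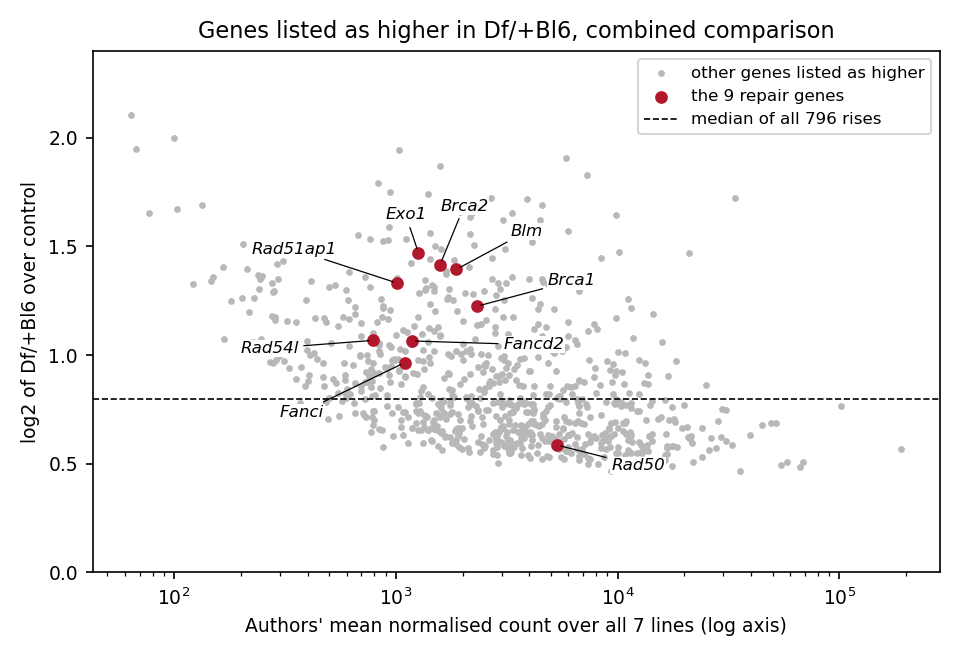
Log2 difference against the mean normalised count over all 7 lines (log axis) for the 796 genes listed as higher in the combined comparison, with the 9 repair genes in red and the median of all rises, 0.80, as a dashed line. The 9 genes lie between mean counts of 792 and 5326, and Rad50, which came to -0.021 after recentring on all listed genes, is the 1 below the line.

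Small differences were listed mainly at high levels, as the lower edge of the plot of difference against level shows, so the size of a rise was also read among genes of similar level. Between the lowest and the highest mean of the 9 genes over all lines, 792 and 5326, there were 676 listed genes, 442 of them higher and 234 lower in Df/+Bl6. The median rise in this range was 0.81, and 8 of the 9 genes lay above it.

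Beyond the 9 genes, 7 lists of recombination, Fanconi and damage signalling genes hold 63 other tested genes counted here. Of these 28 rose (44.4%), with a median difference of 0.94, and 0 fell. The lists too were chosen with earlier results known, so their counts are descriptions. With the 9 genes included, 37 of 72 rose (51.4%), and Exo1 ranked 3 by difference after Chek1 (1.53, 536 to 1549), which encodes the checkpoint kinase that acts below ATR, and Gen1 (1.53, 442 to 1274), a nuclease that cuts Holliday junctions. Brca2 ranked 5 and Blm 6. Rad50 ranked 34, and the lowest was the damage mediator gene Mdc1 (0.47, 7643 to 10572). Among damage signalling genes 7 of 11 rose, including Clspn (1.26), Atr (0.94), Topbp1 (0.87) and Atm (0.74), while Atrip, Chek2, Rnf8 and Trp53bp1 were not listed. Of 6 nuclease genes for crosslinks and junctions, Gen1 and Eme1 (0.98) rose, and Mus81, Slx4, Ercc1 and Ercc4 were not listed. Of 7 other helicase and antagonist genes, Parpbp (1.35), Recql4 (1.05) and Rtel1 (0.56) rose. None of these genes was listed as lower, though after recentring on all listed genes 4 of the 37 rises came below 0, those of Mdc1 (-0.139), Rtel1 (-0.048), Rnf168 (-0.028) and Rad50 (-0.021).

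In other repair pathways 10 of 47 tested genes rose (21.3%) and 0 fell, with a median of 0.69, and the difference between these shares was not tested. Among 10 end joining genes, Polq, which encodes the polymerase of the microhomology route, rose by 1.56 (672 to 1985), which is more than Exo1, and Lig4 by 0.64. The genes of the Ku and DNA-PK complex, Xrcc5, Xrcc6 and Prkdc, were not listed. Among 7 mismatch repair genes 5 rose, from Msh6 (0.52) to Pms1 (0.96). Of 15 base excision genes Neil3 (1.38), Mbd4 (0.87) and Lig1 (0.60) rose. None of the 15 nucleotide excision genes was listed in either direction. After recentring 3 of the 10 rises came below 0, those of Msh6 (-0.089), Lig1 and Msh3.

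**Figure D3:**
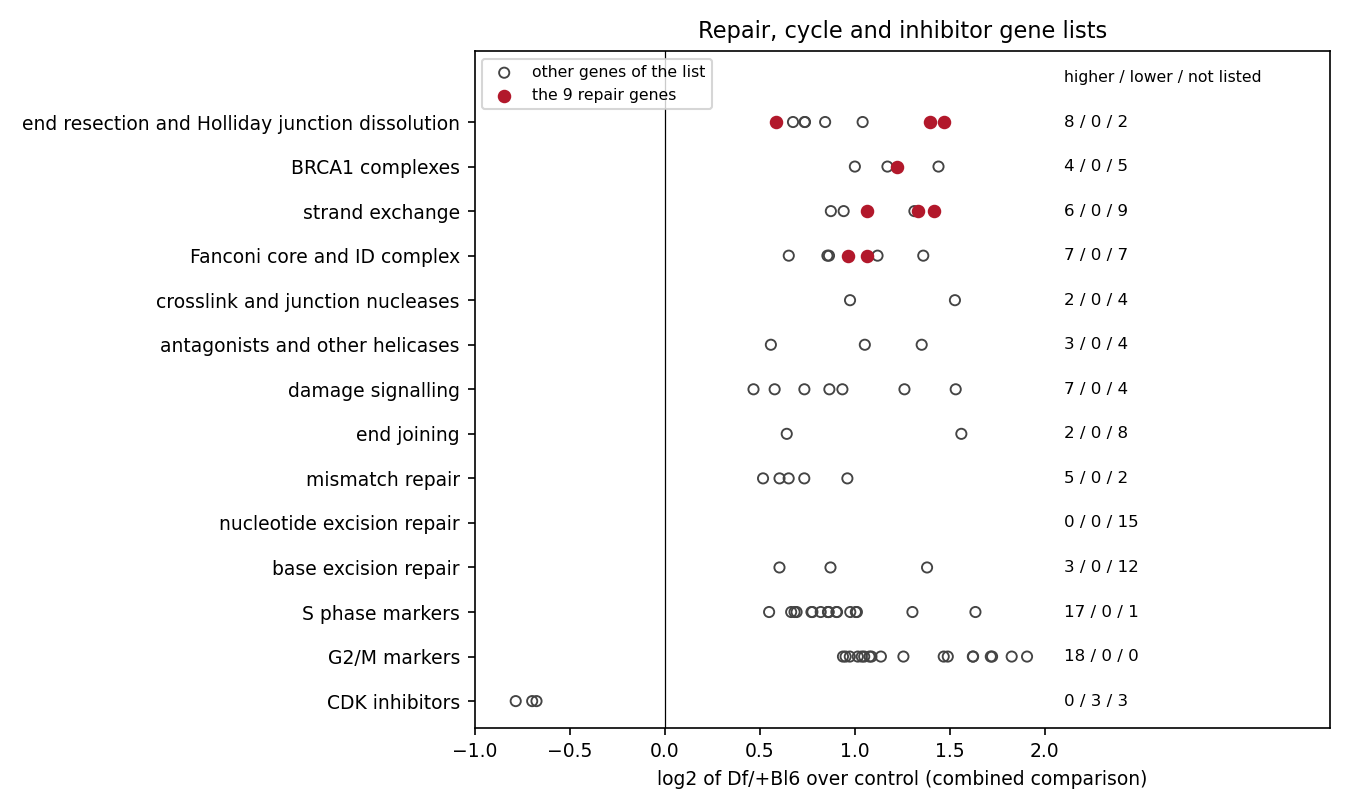
Each point is a gene listed in the combined comparison, placed by its log2 difference, with 1 row for each list and the 9 repair genes filled in red. The figures at the right count the tested genes of a list that were higher, lower or not listed, and no listed repair gene lies left of 0 as the means stand, though Rad50, Rtel1, Mdc1, Rnf168, Msh3, Msh6 and Lig1 do after recentring on all listed genes.

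Most S phase and G2/M markers were also listed as higher in Df/+Bl6, and whether they vary with the 9 genes from line to line was not measured. Of 18 S phase markers 17 rose, with a median of 0.86, Gins2 being the exception that was not listed, and their summed mean was 98195 in the controls and 177218 in Df/+Bl6. Rrm1 was the most abundant of them (17112 to 31105), and Ccne1 was the 1 of the 17 to come below 0 after recentring (-0.057). All 18 G2/M markers rose, with a median of 1.20, close to the 1.22 of the 9 genes. Their summed mean was 78464 in the controls and 202064 in Df/+Bl6, with Mki67 as the most abundant gene in both (14644 to 48354). Of 6 tested genes for inhibitors of cyclin-dependent kinases, Cdkn1a (-0.67), Cdkn2a (-0.70) and Cdkn2b (-0.78) fell, and their summed mean was 42630 in the controls and 25859 in Df/+Bl6. In bulk RNA, more cycling cells and more RNA of these genes in each cell cannot be told apart, and the part of the cycle in the differences of the 9 genes was not tested.

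Markers of cell types were read as a check of the cultures. All 8 fibroblast markers were among the tested genes and 7 were not listed, while Fn1 fell by 0.69, from 3418220 to 2121647. Both Schwann or neural crest markers counted here, Sox10 (-1.53) and Erbb3 (-1.09), fell. Their summed mean was 608 in the controls and 245 in Df/+Bl6, with Sox10 the most abundant in the controls (326 to 113). The part of these cells in the rises of the 9 genes was not tested. None of the tested markers of skeletal muscle (6), macrophages (5), endothelium (4), epithelium (3), hepatocytes (1) or chondrocytes (3) was listed. These lists are short and do not show that such cells were equally common in both genotypes. Some other genes known from cartilage, named after their values were seen, fell, among them Col10a1 (-1.97), Comp (-2.53) and Col9a2 (-2.02). The cartilage collagen gene Col27a1 went the other way and was listed as higher (0.91). Some genes known from epithelia, also named after their values were seen, fell as well. Among them were the keratin gene Krt75 (-2.77), the hemidesmosome and laminin genes Itgb4 (-1.80), Lama3 (-1.64) and Lamb3 (-1.30), and the desmosome gene Dsp (-1.09). Their part in the rises of the 9 genes was not tested either. Levels of markers not listed were not used, so which of them were at 0 is not given.

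Reads over strain differences give each allele its own comparison, with fewer reads and a normalisation of its own, so differences are set side by side and levels are not. Of the 9 genes, 3 were listed on 129S5 reads and 4 on C57BL/6J reads, each as higher. The choice of the 9 genes with results known limits these counts as well. The genes listed as higher in these tables made up 0.856% and 1.16% of the genes tested in the combined comparison, which stands in as the denominator since the tables used do not name the genes tested per allele. Exo1 rose from 71.4 to 189 on the 129S5 allele, a difference of 1.40, and from 126 to 417 on the C57BL/6J allele, a difference of 1.73. Blm rose from 24.3 to 62.5 on the 129S5 allele and from 67.9 to 178 on the C57BL/6J allele, with differences of 1.37 and 1.39. Both alleles of these genes were thus listed with the same sign.

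Fanci rose from 98.4 to 171 on the 129S5 allele, a difference of 0.79, and from 199 to 402 on the C57BL/6J allele, a difference of 1.02. The C57BL/6J difference was the larger by 0.32 for Exo1 and 0.22 for Fanci, across tables normalised separately. For Blm the order turned with the scaling, since after recentring on the listed genes of each table its difference was 0.74 on 129S5 reads and 0.71 on C57BL/6J reads. On that scale Exo1 came to 0.78 on 129S5 reads and 1.04 on C57BL/6J reads, and Fanci to 0.17 and 0.33. None of these gaps was tested here. The paper describes a test, gene by gene, of changes in the proportion of reads per allele, whose results were not used. Brca1 was listed for the C57BL/6J allele alone, from 29.4 to 80.9, a difference of 1.46, or 0.78 after recentring. Being listed for 1 allele does not show that the alleles differed. Rad50, Brca2, Rad51ap1, Rad54l and Fancd2 were in neither allelic table. Over the 7 recombination and Fanconi lists, 7 genes were listed as higher on 129S5 reads and 13 on C57BL/6J reads, 6 of them on both, and 0 were lower. After recentring on the listed genes of each table, Wrn on 129S5 reads and Fanca on C57BL/6J reads came below 0. Their differences, 0.59 and 0.65, lay under the medians of 0.63 and 0.69.

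**Figure D4:**
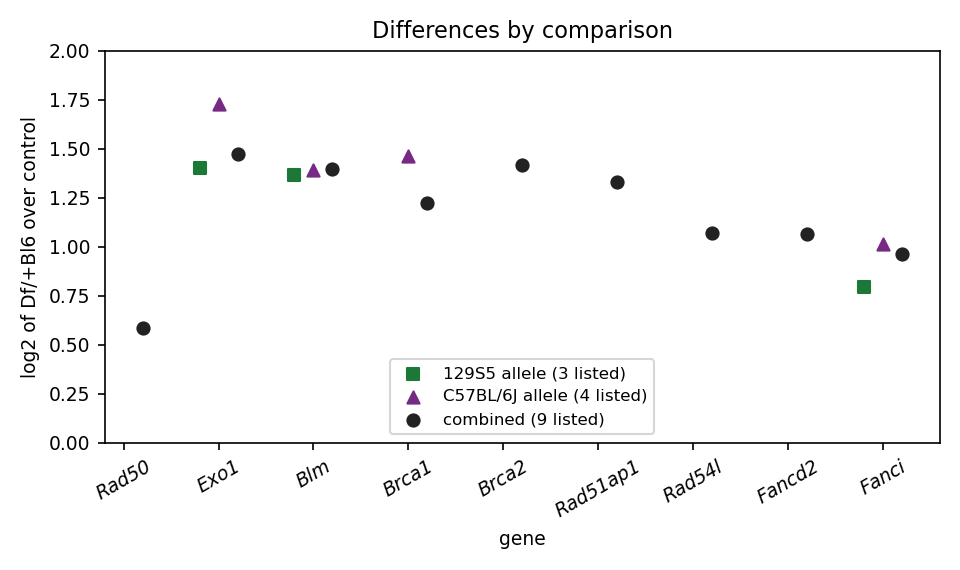
Log2 difference of each of the 9 genes in the combined comparison (circles) and, where listed, on 129S5 reads (squares) and C57BL/6J reads (triangles). Exo1, Blm and Fanci have all 3 values, Brca1 has 2, and the other 5 genes have the combined value alone, with Rad50 at 0.59 before and -0.021 after recentring on all listed genes.

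Among the 178 other genes listed in all 3 tables, those with the profile nearest to the median of Exo1, Blm and Fanci over the 3 differences were Sgol1 (Euclidean distance 0.088), G2e3 (0.095), Mybl2 (0.101), Prr11 (0.107) and Kif14 (0.14). That median was the value of Blm in each table, so these are the genes nearest to Blm, and their closeness to it follows from the choice.

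The 9 genes lie on 6 chromosomes. Rad54l is the 1 gene of them on chromosome 4, and it ends 34.2 Mb before Rere. Rere and Ski were taken here to bracket the deletion, whose exact ends were not used. None of the 217 list genes with a RefSeq position lies between Rere and Ski. The 37 recombination and Fanconi genes that rose lie on 17 chromosomes, 5 of them on chromosome 4. Some of the 9 genes share their locus with a gene on the opposite strand, such as Rad54l with Lrrc41 and Fanci with Polg. The libraries were stranded, but the use of strand in counting is not given in the sources used here. Neither Lrrc41 nor Polg was listed. No gene overlaps Brca1 or Rad51ap1 in the annotation used.

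Promoters of the 9 genes were searched for letters that cell cycle promoters often carry. RefSeq promoter windows on GRCm38.p6, from 250 bases before the start site to 50 after it, were at hand for 6 of the 9 genes. The E2F letters were TTTCCCGC and its variants TTTCGCGC and TTTGCCGC as well as TTTGGCGC, the CHR letters were TTTGAA, and the CCAAT box was CCAAT, each on both strands. The 4 windows below belong to the genes with E2F letters (Brca2) or CCAAT letters (Brca1, Rad51ap1 and Blm) and with a difference above 1.2 in the combined comparison. They are written in the direction of transcription, in lower case with the matched letters in capitals. Brca2 is chr5:150522371-150522670 on the plus strand. The other windows are on the minus strand, Brca1 at chr11:101551906-101552205, Rad51ap1 at chr6:126939538-126939837 and Blm at chr7:80534949-80535248.
Brca2: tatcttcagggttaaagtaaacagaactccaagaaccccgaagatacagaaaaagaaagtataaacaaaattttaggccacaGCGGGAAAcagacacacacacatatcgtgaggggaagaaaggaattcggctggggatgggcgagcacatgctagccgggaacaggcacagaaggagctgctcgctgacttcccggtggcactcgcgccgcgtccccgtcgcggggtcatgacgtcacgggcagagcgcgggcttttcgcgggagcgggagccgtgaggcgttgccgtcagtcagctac
Brca1: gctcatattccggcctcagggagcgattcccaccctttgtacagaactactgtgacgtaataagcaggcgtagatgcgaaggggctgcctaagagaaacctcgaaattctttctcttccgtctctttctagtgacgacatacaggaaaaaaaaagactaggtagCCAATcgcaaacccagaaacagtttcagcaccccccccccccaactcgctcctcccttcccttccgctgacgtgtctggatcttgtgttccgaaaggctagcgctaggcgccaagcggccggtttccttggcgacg
Rad51ap1: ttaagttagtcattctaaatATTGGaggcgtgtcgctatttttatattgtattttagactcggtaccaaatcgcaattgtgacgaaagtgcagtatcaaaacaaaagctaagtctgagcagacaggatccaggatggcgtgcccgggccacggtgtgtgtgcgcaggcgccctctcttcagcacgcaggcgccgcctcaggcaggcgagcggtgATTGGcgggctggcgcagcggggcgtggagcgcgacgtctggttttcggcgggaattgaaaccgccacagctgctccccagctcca
Blm: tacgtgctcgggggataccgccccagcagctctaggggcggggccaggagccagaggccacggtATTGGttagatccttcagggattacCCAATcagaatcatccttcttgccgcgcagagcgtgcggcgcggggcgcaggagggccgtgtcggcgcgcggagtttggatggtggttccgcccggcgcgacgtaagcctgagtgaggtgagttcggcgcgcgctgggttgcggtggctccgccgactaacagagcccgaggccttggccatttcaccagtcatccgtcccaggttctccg

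Distances are counted from the start site of each window, which can differ from the outer end of the RefSeq gene given above. That site lay 324 bases inside the gene for Brca2, so that its whole window is within the gene as given, 150 bases inside for Blm, 34 for Rad51ap1, 26 for Fanci, 10 for Rad54l and 0 for Brca1. The Brca2 window held TTTCCCGC on the opposite strand, with its match starting 168 bases before the start site of the window. In Brca1 a CCAAT box began 86 bases before the start site. Rad51ap1 had 2 on the opposite strand, at 230 and 36 bases before the start site, and Blm had 2, at 186 bases on the opposite strand and at 161 bases on its own. Rad54l, with 2 windows in the table of which the first is described (chr4:116123641-116123940, minus strand), had 1 at 50 bases, and Fanci (chr7:79392088-79392387, plus strand) held none of the letters searched. In all, E2F letters were found for 1 of the 6 genes, CHR letters for 0 and CCAAT letters for 4. Over all 27025 genes of the table the shares were 2.60% for E2F, 20.2% for CHR and 41.1% for CCAAT. Over the 10115 tested genes with a window they were 4.50%, 14.2% and 42.6%. Over the 555 genes with a window that rose in the combined comparison they were 14.2%, 25.4% and 54.1%, counting any window of a gene. A match describes letters in a window and says nothing of binding. Within the 100 bases before the start site, the E2F count was 0 and the CCAAT count 3 of 6. There the share of tested genes was 1.70% for E2F and 25.8% for CCAAT, and that of genes that rose was 5.05% and 40.9%.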

How the data were processed

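Polyadenylated RNA of 7 MEF lines was sequenced as stranded paired-end libraries. The authors aligned the reads with GSNAP, allowing no mismatch, to the C57BL/6J transcriptome (Ensembl release 72, GRCm38/mm10) and to a version of it carrying the 129S5/SvEvBrd variants, kept pairs with a single best location on 1 gene, and dropped genes with few reads per allele. The deposited signal values used here are means per genotype of counts that the authors divided by DESeq size factors, separately in each of 3 tables. In every row the overall mean equals the weighted mean of 4 and 3 lines, which gives the columns their genotypes, and the study's legend, which sets the controls over Df/+Bl6, gives the same assignment. The sign was turned here, so that positive means higher in Df/+Bl6. The tables hold only genes past the authors' FDR of 0.05. Their fold change, log2 fold change, p and adjusted p columns were not used, other than through a gene being listed. A further table has 9 columns of values without names against 7 lines. These were not used, since no name ties a column to a line or genotype, so the intended test over lines was not run and depth per line is not given. Only its gene identifiers served, as the 15531 genes tested.

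Log2 ratios of the means were computed without a pseudocount. The members and lists were chosen with earlier results of these data known. Some genes of the lists are not reported here and enter no count of a list. The text names all 9 members, any gene of the lists, the 5 genes with the nearest profile, and the members next to the median rise. Wrn, overlapping genes, the genes taken to bracket the deletion, and the cartilage and epithelial genes outside the marker lists were added for completeness, the last after their values were seen. Symbols came from the gene name table and RefSeq synonyms, positions from RefSeq (GRCm38.p6), and overlaps and transcript lengths from GENCODE M1 (NCBI37), another gene set than the authors used. The alternatives were pseudocounts, recentring, a fold or level minimum, fewer members and a shorter promoter window. Scripts were tested on simulated data and run in Python 3.11.15 with numpy 2.4.6 and matplotlib 3.10.9.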

Additional observations from a re-analysis of the deposited data

How the results depend on the processing

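Of 65 alternatives, 39 kept their value, taken as a shift of at most 0.1 on the log2 scale or a count within 1.5 times, 25 moved further and 1 reversed. The tolerance of 0.1 was set here, since no spread between lines was measured. Recentring subtracts the median difference of the listed genes, 0.61 in the combined table, 0.63 for 129S5 and 0.69 for C57BL/6J. That median is not the one of all genes tested. Each of these values exceeds the tolerance of 0.1, so every recentred log2 difference moved or reversed by construction. Recentring turned the order of the allelic differences of Blm, to 0.74 for 129S5 and 0.71 for C57BL/6J. It took the combined difference of Rad50 to -0.021 and the median of the 9 genes from 1.22 to 0.62. That median was 1.37 over the 3 genes of the 129S5 table and 1.43 over the 4 of the C57BL/6J table, which hold fewer genes. It was 1.20 without Brca1, Blm and Rad50. A pseudocount of 1 shifted the differences of the 9 genes by up to 0.035, and one of 10 shifted the combined differences by at most 0.016 and the allelic ones, which rest on low means, by up to 0.28. With a rise of at least 2-fold required, 19 of the 37 recombination and Fanconi genes and 2 of the 10 other repair genes were counted, by construction fewer. A mean of at least 100 in one genotype left both counts as they were. Recentring, applied to these counts after seeing the data, left 33 and 7 above 0.

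No paired analysis was possible because the named columns are means per genotype and the 9 further columns carry no name or replicate number that ties them to lines. For the same reason leaving out each line in turn was not run. The depth per line is not given, and what it limits was not measured.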

Other observations

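Lists for fork protection with the checkpoint clamp and for translesion synthesis were written after some values of these data, such as that of Rif1, had been seen, so their counts are descriptions only. Of 13 tested genes for fork protection and the clamp, 6 rose in Df/+Bl6 MEFs and 0 fell. Atad5, which unloads the sliding clamp PCNA from DNA, rose 2.83-fold (737 to 2088), beside 2.77-fold for Exo1. Rif1, which holds back end resection and shields stalled forks, rose by 1.33 (1684 to 4231), as did Rad51ap1. On the alleles, Rif1 differed by 1.40 for 129S5 and 1.25 for C57BL/6J. Etaa1, an activator of ATR, rose by 1.26 (478 to 1144), Mcm8 by 1.15, Mms22l by 0.99 and Timeless by 0.78. Tonsl, the partner of MMS22L, and Mcm9, the partner of MCM8, were tested and not listed, and neither were the clamp genes Hus1 and Rad1 or the loader gene Rad17.

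Of 9 tested translesion synthesis genes 4 rose and 0 fell. Rad18, the ligase that marks PCNA with ubiquitin, rose by 1.13 (924 to 2020). The related genes Hltf and Shprh rose by 0.61 and 0.60, and Rev3l, which encodes the catalytic subunit of a bypass polymerase, by 0.55 (3426 to 5017). Rev1, Mad2l2, Polh, Polk and Poln were not listed. After recentring on all listed genes Rev3l (-0.057) and Shprh came below 0.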
